A study of Arabidopsis thaliana with 62 samples.

Results

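The genes accD, clpP, ycf1 and ycf2 of the Arabidopsis plastid genome were followed through a study of how chloroplast DNA is divided between the membrane and stroma fractions of the organelle. They are 4 of the 113 plastid genes tested, out of 129 plastid entries in the gene table, and were chosen by name as housekeeping genes of the nuclear-encoded polymerase. Every gene of the set was measured in every library used, and none was lost to a filter. In Col0 seedlings of the first table all 4 genes had lower coverage relative to the library mean in membrane than in stroma libraries, as did 49.6% of all genes tested. The same direction was called for 4 genes in sig2-2 beside 55.8% of all genes, for 2 in leaves after the onset of light beside 35.4%, for 1 in sig6-1 beside 2.65%, and for none in leaves kept in darkness or in any genotype of the second table. These counts come from fits that did not pair libraries. With same-numbered libraries as blocks, ycf1 was also called in leaves after the onset of light, and clpP and ycf1 in Col0 of the second table. Those fits called 47 and 33 of 113 genes lower. The counts without blocks depended on the scaling. With depth scaled to the median window, clpP alone was called in Col0 of the first table and in leaves after the onset of light. None of the 4 was called in sig2-2 or sig6-1, and the median gene in Col0 moved from -0.271 to 0.02. With the single-copy mean, ycf2 was lost in Col0 and sig6-1. The clpP and ycf2 calls were lost in sig2-2, and the accD call in leaves after the onset of light.

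Plastid genes are transcribed by a bacterial-type polymerase encoded in the plastid, which nuclear-encoded sigma factors direct to its promoters, and by single-subunit phage-type polymerases encoded in the nucleus. The nuclear-encoded enzyme is known for reading housekeeping genes early in leaf development, before the plastid-encoded enzyme takes over the photosynthesis genes. The gene accD encodes a subunit of the plastid acetyl-CoA carboxylase, the entry enzyme of fatty acid synthesis. The gene clpP encodes a proteolytic subunit of the Clp protease. The product of ycf1 is the translocon subunit Tic214 of the inner envelope membrane, and that of ycf2 is part of the Ycf2-FtsHi motor complex that pulls proteins into the plastid. The genes rpoB, rpoC1 and rpoC2, which encode subunits of the plastid-encoded polymerase, are also read mainly by the nuclear-encoded enzyme and were followed as a list beside the set.

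The gene table (assembly TAIR10.1, plastid sequence) places accD (ArthCp031) at positions 57075 to 58541, clpP (ArthCp048) at 69910 to 71882, ycf1 (Arthcp087) at 123884 to 129244 and ycf2 (ArthCp066) at 86474 to 93358. Gene bodies are 1467, 1973, 5361 and 6885 bases long. As background, accD and ycf2 are read in the direction of increasing coordinates and clpP and ycf1 in the opposite direction, and clpP holds introns, which are part of the interval measured. The genome carries a large inverted repeat, at 84337 to 110436 and 128213 to 154312. All of ycf2 lies inside it, so its values stand for both copies. Of ycf1, 1032 bases at the 5′ end lie in the repeat and 4329 bases are single-copy. A truncated ycf1 entry in the other repeat copy shares the reads of those 1032 bases.

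SOLINA, the submitters' name for the assay, sequences DNA from the membrane and stroma fractions of chloroplasts fixed for 4 h in 4% formaldehyde. The first table holds 30 libraries in 10 groups of 3, namely membrane and stroma of wild-type Col0, sig2-2 and sig6-1 seedlings 4 days old and of 14-day-old plants labelled Day and Night. Day leaves were taken 2 h after the light came on in a cycle of 16 h light and 8 h darkness, and Night leaves after 24 h of darkness. The second table holds 32 libraries in 8 groups of 4, membrane and stroma of 4-day-old Col0, sig2-2, chl27 and chlm seedlings. The column of chlm stroma replicate 1 holds a running row number in place of coverage and was not used, which leaves 31 libraries and n = 3 in that group. sig2-2 and sig6-1 are lines mutated in sigma factors of the plastid-encoded polymerase, and chl27 and chlm are lines affected in enzymes of chlorophyll synthesis. The genotype field of the second table names the wild type throughout, against titles and line names that name mutants, and groups follow the titles. The mutated genes are nuclear and plastid coverage cannot check them.

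Seedlings grew on plates under continuous light and the 14-day-old plants on soil, both at 100 µmol per square metre per second. Day and Col0 therefore differ in age, tissue, growth medium and light regime, and these cannot be told apart. The protocol text of the first table describes 5 g of leaves also for its seedlings, with chloroplasts isolated before crosslinking. That of the second table describes 50 whole seedlings crosslinked before they were ground. The tables were therefore fitted apart, and no level was tested across them. Nothing in the labels says that replicates came from separate cultures, so p-values measure the spread between these libraries, which may be technical.

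Mean depth per library was 95.4 to 1596 reads per base in the first table, lowest in Night membrane replicate 1, and 298.9 to 4598 in the second. The lowest mean depth of any of the 4 genes in any library was 43.2. The scaled depth used throughout is the mean depth over a gene body divided by the mean over all 154477 positions of the same library, so a value of 1 is the library average. It is per base, so gene length does not scale it. No correction was made for uneven recovery of reads along the genome or for how repeat reads were placed. Levels of different genes are compared below with that limit. A scaled depth sets a gene against the other plastid positions of the same library. It does not tell how many genomes a fraction held or how many were recovered. No 2 libraries were identical. The mean of the single-copy positions over the library mean was 0.555 to 0.741 in the 3 seedling membrane groups of the first table and 0.705 to 0.876 in the seedling stroma groups, against 0.804 to 1.02 in Day. The ribosomal RNA gene rrn23S, in the repeat, had a membrane minus stroma difference of 1.01 on the log2 scale in Col0 and 1.13 in Day of the first table (limma adjusted p = 9.54e-05 and 5.65e-05). The ribosomal and single-copy shares differ between the groups compared below, and their part in the results was not tested.

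Levels of accD, clpP and ycf1 lay below the library average in most libraries of the first table, and ycf2 above it. Scaled depth in single libraries ran from 0.530 to 1.03 for accD, from 0.533 to 1.06 for clpP, from 0.442 to 1.04 for ycf1 and from 0.905 to 1.42 for ycf2. The lowest value of each of accD, clpP and ycf1 was in sig2-2 membrane replicate 3, and the highest in Day stroma replicate 3. For accD the group means fell from 0.969 ± 0.0536 (SD, n = 3) in Day stroma, through 0.820 ± 0.0284 in Col0 stroma, to 0.611 ± 0.0845 in sig2-2 membrane. In the order of its 10 group means only 2 gaps between neighbours exceeded the larger SD of the pair, below Day stroma and below sig6-1 stroma. For clpP the means fell from 0.990 ± 0.0588 in Day stroma to 0.594 ± 0.0832 in sig2-2 membrane, and for ycf1 from 0.974 ± 0.0630 to 0.512 ± 0.0872 in the same groups. In ycf1 the gap below Day stroma was the only one above the larger SD of its pair. The order of ycf2 was another one, with sig6-1 stroma highest at 1.38 ± 0.0416 and Col0 membrane lowest at 0.940 ± 0.0323 (n = 3 each). Day stroma, the highest group of the other 3 genes, came seventh of 10 for ycf2 at 1.14 ± 0.0293.

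**Figure D1:**
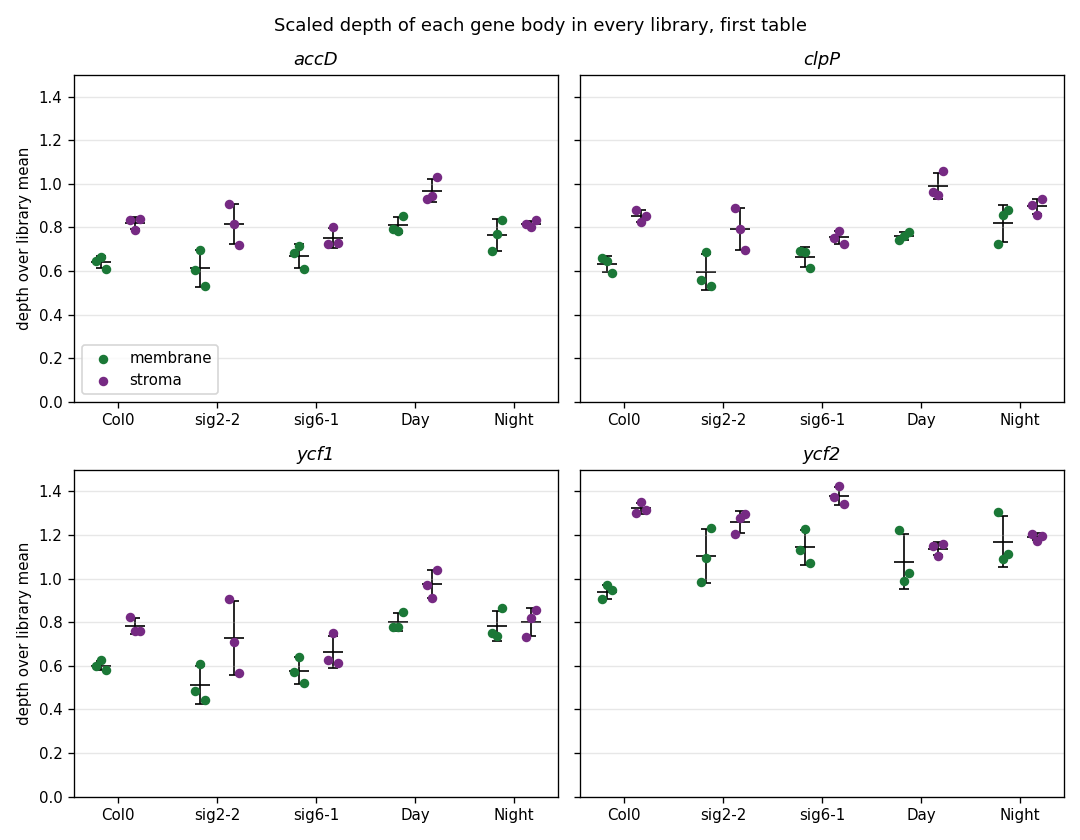
Scaled depth (mean depth over the gene body divided by the library mean, linear axis) of accD, clpP, ycf1 and ycf2 in each of the 30 libraries of the first table; points are libraries and bars are group means with SD (n = 3). In Col0 the membrane points of all 4 genes lie below the stroma points, and ycf2 lies higher than the other genes, between 0.905 and 1.42.

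The comparison of membrane with stroma asks in which fraction each gene had the higher depth relative to the rest of the plastid genome. In Col0 seedlings of the first table, accD had a scaled depth of 0.647, 0.664 and 0.611 in the membrane libraries and 0.835, 0.787 and 0.838 in the stroma libraries. The protease gene clpP had 0.660, 0.647 and 0.589 against 0.878, 0.825 and 0.853. For the import genes, ycf1 had 0.599, 0.625 and 0.580 against 0.823, 0.759 and 0.759. The repeat gene ycf2 had 0.905, 0.968 and 0.946 against 1.30, 1.35 and 1.315. No membrane library of any of the 4 genes reached the lowest stroma library. The groups were likewise apart for 86.7% of all genes tested.

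All 4 differences in Col0 passed limma's test across 113 genes with Benjamini-Hochberg adjustment at 0.05. The log2 difference of membrane minus stroma was -0.36 (SE 0.0961, adjusted p = 0.00239) for accD and -0.43 (SE 0.0969, adjusted p = 0.000524) for clpP. It was -0.38 (SE 0.130, adjusted p = 0.0133) for ycf1 and -0.49 (SE 0.0865, adjusted p = 9.54e-05) for ycf2, a membrane level 0.711 times that of the stroma. A lower membrane level was called for 49.6% of all genes. The median gene itself lay at -0.271. Relative to it the 4 genes lay at -0.0861, -0.162, -0.106 and -0.222 for accD, clpP, ycf1 and ycf2. Counted from the lowest difference they ranked 44, 26, 39 and 15 of 113. Scaled to the median 500-base window in place of the mean, which moved the median gene by 0.291, only clpP was still called in Col0, at -0.142 (adjusted p = 0.0147). Scaled to the single-copy mean, which moved it by 0.183, accD, clpP and ycf1 were called and ycf2 was not, at -0.31 (adjusted p = 0.0556). With the median depth per gene the ycf1 call was lost, at -0.432 (adjusted p = 0.0902). The share of calls that were higher in the membrane was 31.7% with the library mean, 64.6% with the median window and 46.8% with the single-copy mean.

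The polymerase genes rpoB, rpoC1 and rpoC2 were also called lower in the Col0 membrane, 3 of 3, with a median of -0.48 and a range of -0.50 to -0.41. Over the neighbouring genes the direction varied. Beside accD, rbcL, the gene of the Rubisco large subunit, lies 677 bases away and had a difference of 0.165 (adjusted p = 0.195), whereas the photosystem I gene psaI, 705 bases away on the other side, was lower at -0.495 (adjusted p = 0.000853). Beside clpP the ribosomal protein gene rps12 was lower at -0.299 (adjusted p = 0.0458), and the photosystem II gene psbB was not called at -0.189 (adjusted p = 0.0616). Beside ycf1 the ribosomal protein gene rps15, 321 bases away, was lower at -0.459 (adjusted p = 0.0117), and the transfer RNA gene trnN, 320 bases away in the repeat, was higher at 0.813 (adjusted p = 0.00105). The transfer RNA genes trnI and trnL on either side of ycf2 were not called, at -0.036 and -0.136 (limma adjusted p = 0.83 and 0.581).

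**Figure D2:**
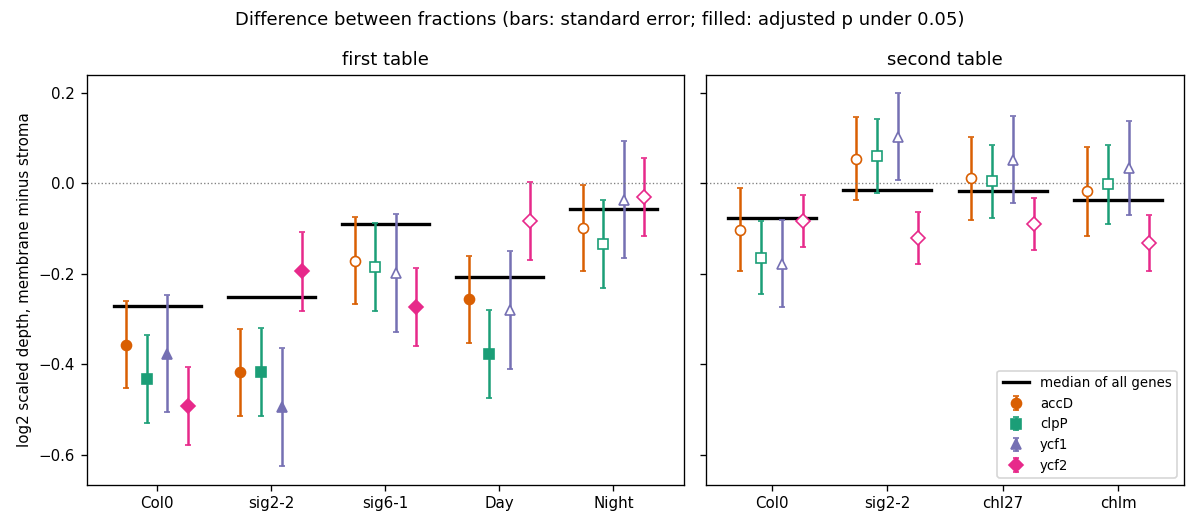
Log2 difference of scaled depth, membrane minus stroma, for the 4 genes in the 5 conditions of the first table and the 4 of the second; points are limma estimates, bars their standard errors, filled points are called (adjusted p under 0.05) and black lines mark the median of all 113 genes. In Col0 of the first table the 4 filled points run from -0.49 to -0.36, and no point is filled in Night or in the second table.

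In sig2-2 seedlings of the first table all 4 genes were again called lower in the membrane, beside 55.8% of all genes. The membrane libraries of accD had 0.606, 0.698 and 0.530 and the stroma libraries 0.907, 0.816 and 0.721. Those of clpP had 0.560, 0.689 and 0.533 against 0.887, 0.793 and 0.696. In ycf1 the values were 0.483, 0.610 and 0.442 against 0.905, 0.709 and 0.569, and in ycf2 they were 0.986, 1.10 and 1.23 against 1.204, 1.28 and 1.30. The fractions did not overlap for accD and clpP and overlapped for ycf1 and ycf2. They were apart for 45.1% of all genes. Differences were -0.42 for accD and for clpP (adjusted p = 0.00146 each), -0.50 for ycf1 (adjusted p = 0.0024) and -0.19 for ycf2 (adjusted p = 0.0468, limma). The median gene lay at -0.251. Fitted on the sig2-2 libraries alone, none of the 4 was called (adjusted p = 0.0968, 0.0968, 0.0965 and 0.356). With the median window none of the 4 was called, with accD at -0.0878, clpP at -0.0879, ycf1 at -0.165 and ycf2 turned to 0.135 (limma adjusted p = 0.0978, 0.112, 0.09 and 0.36). With the single-copy mean accD and ycf1 were called at -0.107 and -0.185 (limma adjusted p = 0.0313 and 0.043), while clpP at -0.107 (adjusted p = 0.0622) and ycf2 at 0.116 (adjusted p = 0.484) were not. The ycf2 call was also lost without membrane replicate 1, at -0.116, without membrane replicate 2 or stroma replicate 2, at -0.192 and -0.184, and without stroma replicate 3, at -0.173.

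In sig6-1 only ycf2 was called, at -0.27 (SE 0.0865, adjusted p = 0.0437), beside 2.65% of all genes called lower. Its membrane libraries had 1.13, 1.23 and 1.07 and its stroma libraries 1.38, 1.42 and 1.34, without overlap, as in 37.2% of all genes. The call was lost in 5 of the 6 fits that left out a sig6-1 library, with values of -0.293 to -0.226 and adjusted p of 0.0765 to 0.228. It was also lost under both other scalings, in the sig6-1 libraries alone and with the median depth per gene. The differences of accD, clpP and ycf1 were -0.17, -0.18 and -0.20 (limma adjusted p = 0.253, 0.233 and 0.331). Their 95% intervals reached from -0.468 to 0.0704 over the 3 genes.

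In Day leaves accD and clpP were called lower in the membrane, 2 of 4 beside 35.4% of all genes. The accD libraries had 0.795, 0.785 and 0.852 in the membrane and 0.931, 0.945 and 1.03 in the stroma, and clpP had 0.743, 0.762 and 0.778 against 0.961, 0.951 and 1.06. Both genes had all membrane values below all stroma values, and 65.5% of all genes had fractions that did not overlap. Their differences were -0.26 (adjusted p = 0.0332) and -0.38 (adjusted p = 0.00328), where the median gene lay at -0.207. The accD call was lost without membrane replicate 1, membrane replicate 2 or stroma replicate 3, at -0.243, -0.234 and -0.212. With the median window and the single-copy mean accD was lost, at -0.0487 and -0.0649, and clpP was called at -0.169 and -0.185. With the median depth per gene neither was called, with accD at -0.254 (adjusted p = 0.212) and clpP at -0.331 (adjusted p = 0.0642). For ycf1 the difference was -0.28 (adjusted p = 0.0769), and with same-numbered libraries as blocks it was called at the same value (adjusted p = 0.025). The ycf2 libraries overlapped, with 1.22, 0.988 and 1.03 in the membrane against 1.15, 1.10 and 1.16 in the stroma, and the difference was -0.08 (limma adjusted p = 0.443). The polymerase genes rpoB, rpoC1 and rpoC2 were called lower in 3 of 3, with a median of -0.333.

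After 24 h of darkness no member of the set was called between fractions. In Night the difference was -0.10 for accD, -0.13 for clpP, -0.04 for ycf1 and -0.03 for ycf2 (limma adjusted p = 0.697 to 0.965). For accD the membrane libraries had 0.691, 0.767 and 0.836 and the stroma libraries 0.815, 0.802 and 0.832, which overlap. The 95% interval of its difference was -0.297 to 0.0994. No gene of 113 was called in Night, a share of 0.0%, and 7 had an unadjusted p under 0.05, none of them in the set. A difference called in Day and not in Night is not by itself a difference between them, and the test of that difference follows.

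Tests of the difference between conditions in the membrane to stroma ratio called 1 value in the 4 comparisons of the first table. That was ycf2 in Day against Col0, where the ratio was higher by 0.41 on the log2 scale (SE 0.122, 95% interval 0.158 to 0.662, adjusted p = 0.0319), beside 5.31% of all genes called higher. The Col0 difference of -0.49 and the Day difference of -0.08 are its components. The call was lost in 9 of the 12 fits that left out a Col0 or Day library, with adjusted p of 0.0529 to 0.0902. Without Day membrane replicate 1, the highest ycf2 library of its group, it was 0.317. It was 0.328 (adjusted p = 0.297) with the median window and 0.419 (adjusted p = 0.216) with the single-copy mean. For accD, clpP and ycf1 the same comparison gave 0.10, 0.06 and 0.10 (limma adjusted p = 0.814, 0.936 and 0.886). In sig2-2 against Col0, which uses the same Col0 libraries, ycf2 was at 0.30 (adjusted p = 0.194), and accD, clpP and ycf1 were at -0.06, 0.02 and -0.12 (limma adjusted p = 0.778 to 0.951), where 4.42% of genes were called. In sig6-1 against Col0 all 4 values lay between 0.18 and 0.25 (limma adjusted p = 0.209 to 0.447), where 1.77% of genes were called. In Night against Day, which uses the same Day libraries, they lay between 0.05 and 0.24 (limma adjusted p = 0.222 to 0.801), where 7.96% were.

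Within a fraction most calls fell between Day leaves and Col0 seedlings. In the membrane accD was higher in Day by 0.34 (SE 0.0961, adjusted p = 0.00371), clpP by 0.27 (SE 0.0969, adjusted p = 0.0161) and ycf1 by 0.41 (SE 0.130, adjusted p = 0.00727). The Day membrane values of ycf1, 0.777, 0.778 and 0.849, all exceeded the Col0 values of 0.580 to 0.625, as groups were apart for 85.8% of all genes. For ycf2 the difference was 0.19 (adjusted p = 0.0513). A higher level was called for 38.9% of all genes, and the median gene lay at 0.188. None of the 4 genes was called with the median window or the single-copy mean, which moved the median gene by -0.274 and -0.252, and clpP then stood at -0.00326 with the median window. The clpP call was also lost without Col0 membrane replicate 3, at 0.221 (adjusted p = 0.0833), and with the median depth per gene, at 0.253 (adjusted p = 0.102).

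In the stroma accD and ycf1 were higher in Day by 0.24 (adjusted p = 0.0348) and 0.32 (adjusted p = 0.0379), and ycf2 was lower, at -0.22 (limma adjusted p = 0.034). Backgrounds were 30.1% of genes called higher and 32.7% called lower. The ycf2 values were 1.15, 1.10 and 1.16 in Day stroma and 1.30, 1.35 and 1.315 in Col0 stroma, without overlap, as in 80.5% of all genes. Each of the 6 fits that left out a Col0 or Day stroma library called at most 1 of the 4 genes. In those fits that lost a call, accD lay at 0.194 to 0.257, ycf1 at 0.272 to 0.319 and ycf2 at -0.230 to -0.196. The ycf2 call held under both other scalings, at -0.408 (adjusted p = 0.00645) with the median window and -0.477 (adjusted p = 0.00451) with the single-copy mean. The accD and ycf1 calls were lost under both, with accD at 0.0484 and -0.0205 and ycf1 at 0.128 and 0.0589 (limma adjusted p = 0.153 and 0.48 for ycf1). With the median depth per gene accD was at 0.338 and not called (adjusted p = 0.0676).

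Darkness was compared with light within each fraction as well. In the stroma accD was lower in Night than in Day, with 0.815, 0.802 and 0.832 against 0.931, 0.945 and 1.03, a difference of -0.25 (SE 0.0961, adjusted p = 0.0324). A lower level was called for 27.4% of genes, and the groups were apart for 83.2%. The call was lost without Day stroma replicate 3, at -0.201, and without Night stroma replicate 1 or 2, at -0.244 and -0.233, and under both other scalings. The other 3 genes were not called in the stroma (limma adjusted p = 0.0652 for ycf1, 0.198 for clpP and 0.484 for ycf2), and none of the 4 was called in the membrane (limma adjusted p = 0.331 to 0.865), where 18.6% of genes were. With the single-copy mean clpP was called there at 0.168 (adjusted p = 0.00897), against 0.10 with the library mean.

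The sigma factor lines were compared with Col0 within each fraction. With the library mean the only call was ycf2 in the sig6-1 membrane, at 1.13, 1.23 and 1.07 against 0.905, 0.968 and 0.946 in Col0. The rise was 0.28 (SE 0.0865, limma adjusted p = 0.0379). A higher level was called for 2.65% of genes, and the groups were apart for 39.8%. With same-numbered libraries as blocks it was not called (adjusted p = 0.0519), nor under either other scaling or with the median depth per gene. It was also lost without Col0 membrane replicate 1, 2 or 3, at 0.255, 0.304 and 0.287, or without sig6-1 membrane replicate 1 or 2, at 0.287 and 0.229. In the sig2-2 membrane ycf2 stood at 0.23 (adjusted p = 0.101) and ycf1 at -0.25 (adjusted p = 0.256), where 10.6% of genes were called. In the stroma of either line limma called no gene, a share of 0.0%. Without sig2-2 membrane replicate 1, ycf2 was called at 0.307 (adjusted p = 0.0297), and without replicate 2, ycf1 was called at -0.378 (adjusted p = 0.0411).

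In the second table the 4 genes lay closer to the library average. Scaled depth ran from 0.763 to 1.04 for accD, from 0.784 to 1.05 for clpP, from 0.730 to 1.16 for ycf1 and from 1.06 to 1.33 for ycf2. Col0 stroma had the highest ycf1 mean, 1.11 ± 0.0492 (n = 4), and sig2-2 stroma the lowest, 0.911 ± 0.122 (n = 4). Replicate 2 was the lowest of its group for accD and clpP in 8 of 8 groups and for ycf1 in 7 of 8, and it was the highest for ycf2 in 8 of 8. Its single-copy share of the library mean was also the lowest in 8 of 8 groups. All tests of the second table were therefore also made without the libraries numbered 2, a choice made after the data were seen.

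**Figure D3:**
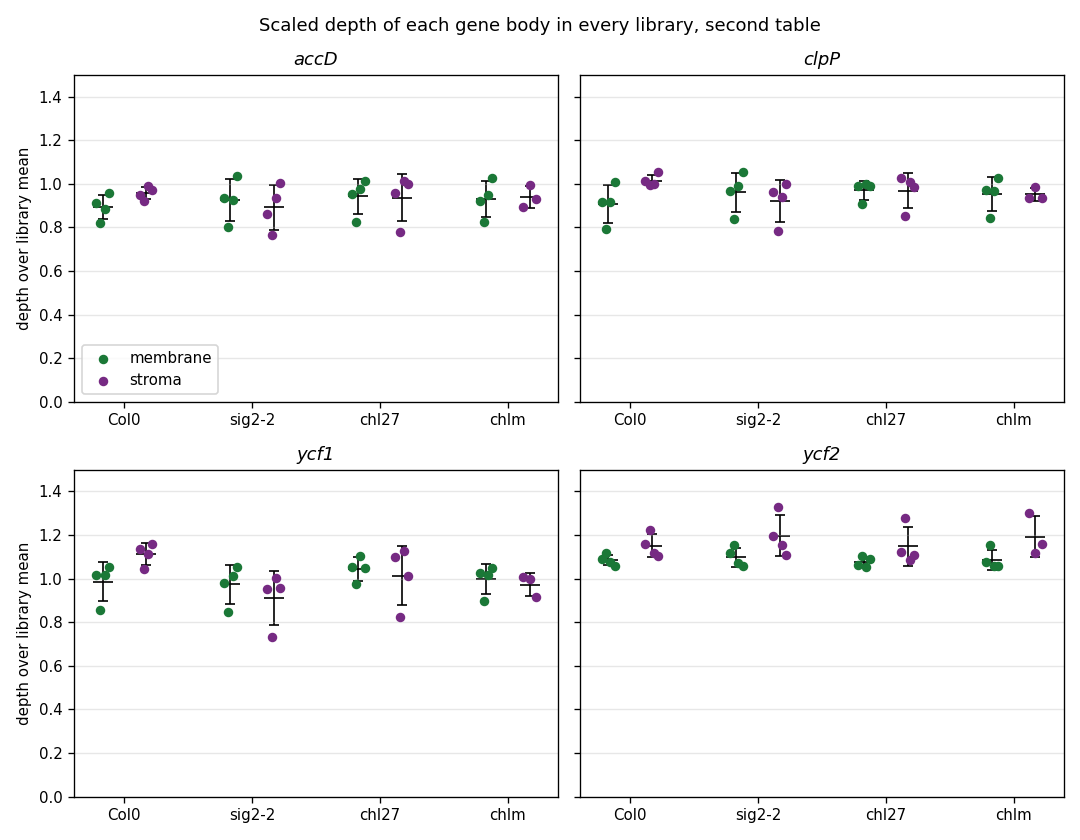
Scaled depth (linear axis) of the 4 genes in each of the 31 libraries of the second table; points are libraries and bars are group means with SD (n = 4, and n = 3 in chlm stroma). Values of accD, clpP and ycf1 lie between 0.730 and 1.16 and those of ycf2 between 1.06 and 1.33.

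No member of the set was called between membrane and stroma in any genotype of the second table. In Col0 the membrane libraries of ycf1 had 1.02, 0.858, 1.02 and 1.05 and the stroma libraries 1.14, 1.04, 1.11 and 1.16, which overlap. The differences were -0.10 for accD, -0.16 for clpP, -0.18 for ycf1 and -0.08 for ycf2 (limma adjusted p = 0.407, 0.146, 0.166 and 0.294), and 5.31% of genes were called lower. With same-numbered libraries as blocks clpP was called at -0.164 (adjusted p = 0.0125) and ycf1 at -0.178 (adjusted p = 0.0232), in a fit that called 33 of 113 genes lower and 26 higher. Without the libraries numbered 2, ycf1 was called at -0.142 (adjusted p = 0.0231). The list of rpoB, rpoC1 and rpoC2 was lower in 3 of 3 in Col0, at -0.138, -0.155 and -0.183 (limma adjusted p = 0.00723, 0.00371 and 0.00305).

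In the mutants of the second table the differences of accD, clpP and ycf1 lay near 0. They were 0.05, 0.06 and 0.10 in sig2-2, and 0.01, 0.00 and 0.05 in chl27 (limma adjusted p = 0.655 to 0.987). In chlm they were -0.02, -0.00 and 0.03 (limma adjusted p = 0.938 to 0.995). For ycf2 they were -0.12, -0.09 and -0.13 in sig2-2, chl27 and chlm (limma adjusted p = 0.355, 0.546 and 0.248). No gene was called in sig2-2 or chl27, a share of 0.0% each by limma, where 14 and 16 of 113 had an unadjusted p under 0.05, and 2.65% were called lower in chlm. Tests of the difference from Col0, which use the same Col0 libraries in all 3 mutants, called none of the 4 genes in the fit of all libraries, and called 0.885% of all genes in sig2-2 and 0.0% in chl27 and chlm. The largest of these was 0.28 for ycf1 in sig2-2 (limma adjusted p = 0.286), with 0.23 in chl27 and 0.21 in chlm (limma adjusted p = 0.466 and 0.751). Without the libraries numbered 2 the sig2-2 value was called, at 0.207 (adjusted p = 0.0362). With same-numbered libraries as blocks, the sig2-2 fit called 27 of 113 genes higher and 27 lower, members of the set among them. Membrane and stroma of sig2-2 were not regarded as paired in this table, with a correlation of 0.0602 in replicate 1.

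Within the stroma ycf1 was lower in sig2-2 than in Col0 of the second table. The sig2-2 libraries had 0.952, 0.730, 1.00 and 0.958 and the Col0 libraries 1.14, 1.04, 1.11 and 1.16, so all 4 of sig2-2 lay below all 4 of Col0. The difference was -0.30 (SE 0.0963, 95% interval -0.497 to -0.101, adjusted p = 0.0289), beside 7.08% of genes called lower and 16.8% without overlap. Its single-copy portion alone gave -0.317 (adjusted p = 0.0514). Blocking on the replicate number also called accD at -0.111 (adjusted p = 0.0426) and clpP at -0.144 (adjusted p = 0.011), in a fit that called 46 of 113 genes lower and 32 higher. Without the libraries numbered 2 the ycf1 difference was -0.227 (adjusted p = 0.00155). The call was lost without Col0 stroma replicate 1, 3 or 4, at -0.290, -0.299 and -0.280, and without sig2-2 stroma replicate 2, at -0.197 (adjusted p = 0.232). Fitted on these groups alone the adjusted p was 0.118. In the first table the same comparison of sig2-2 with Col0 stroma gave -0.13 for ycf1 (adjusted p = 0.779). In no other comparison of a mutant with Col0 within a fraction of the second table did limma call a gene, a share of 0.0% each. In chlm stroma ycf1 was at -0.19 (adjusted p = 0.831), and at -0.251 (adjusted p = 0.0106) without the libraries numbered 2.

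Depth was uneven along the gene bodies. In 200-base bins from the 5′ end, the accD stroma profile of Col0 in the first table fell to 0.246 in the bin centred at 500 and peaked at 1.42 at 900, a ratio of 5.77. In Night stroma the same profile ran from 0.158 to 1.5, a ratio of 9.49, and in Day stroma from 0.672 to 1.12, a ratio of 1.67. The accD profile of Col0 in the second table ran from 0.641 to 1.14 in the stroma, a ratio of 1.78. The clpP profile had its low at the bin centred at 300, with 0.321 in Col0, 0.723 in Day and 0.383 in Night stroma. In Col0 stroma ycf1 ran from 1.40 at its 5′ end to 0.293 in the bin centred at 4900, and ycf2 only from 0.850 to 1.87. In Col0 of the first table every bin of the 4 genes had a lower mean in the membrane than in the stroma, 7 of 7 in accD, 9 of 9 in clpP, 26 of 26 in ycf1 and 34 of 34 in ycf2. The share of such bins over all genes was not counted. With this scaling the median gene itself lay at -0.271, and scaling to the median window moved it by 0.291.

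**Figure D4:**
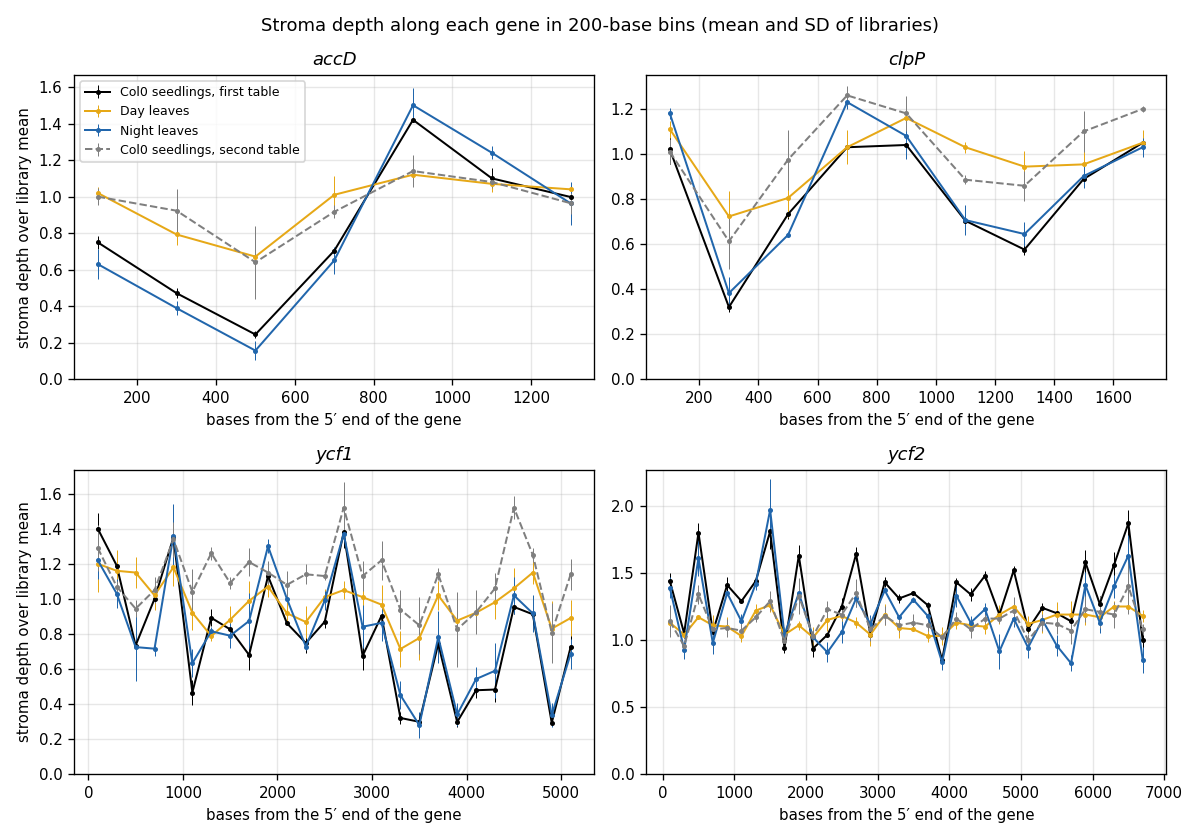
Mean scaled depth of the stroma libraries in 200-base bins along accD, clpP, ycf1 and ycf2, plotted against distance from the annotated 5′ end in bases, for Col0, Day and Night of the first table and Col0 of the second, with the SD of the libraries as bars. The accD line dips to 0.246 in Col0 and 0.158 in Night and only to 0.672 in Day.

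The unevenness was measured as the log2 ratio of mean depth before the midpoint of the gene, on its 5′ side, to that after it, which does not depend on how a library is scaled. For accD it was -1.27, -1.31 and -1.26 in Col0 stroma, -0.343, -0.483 and -0.254 in Day stroma and -2.03, -1.56 and -1.55 in Night stroma. In the membrane it was -1.52, -1.27 and -1.54 in Col0, -0.654, -0.488 and -0.225 in Day and -1.54, -2.06 and -1.04 in Night. Among Col0, Day and Night, Day values were the closest to an even profile in both fractions and overlapped with neither other condition. Replicate 1 of sig2-2 stroma, at -0.388, lay inside the range of Day stroma. How many of all genes had ratios without overlap was not counted.

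Comparisons of this ratio between conditions were added after the profiles were seen, and were fitted over the 50 genes of at least 500 bases. The accD ratio was higher in Day than in Col0 by 0.99 in the membrane (SE 0.226, adjusted p = 0.000787) and 0.92 in the stroma (adjusted p = 0.00209). It was lower in Night than in Day, at -1.09 in the membrane (adjusted p = 0.000895) and -1.35 in the stroma (adjusted p = 5.24e-05). With any 1 library left out, the Day against Col0 differences lay between 0.866 and 1.09 and those of Night against Day between -1.43 and -0.835, and each was called in every alternative run. Over all 50 genes the ratio was called in either direction for 56.0% and 48.0% in Day against Col0, membrane and stroma, and for 32% and 50% in Night against Day. The single-copy share of the library mean was 0.785 to 0.850 in Col0 stroma, 0.960 to 1.02 in Day stroma and 0.822 to 0.888 in Night stroma. It was highest in Day, where the ratio was closest to an even profile. Between Col0 and Night stroma the shares overlapped, while the mean accD ratio was -1.28 and -1.71. The part of the share in the ratio was not tested. Mean depth was 300.8 to 698.4 in Col0 stroma, 906.6 to 1596 in Day stroma and 507.0 to 1046 in Night stroma.

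The ratio of ycf1 was 0.547, 0.721 and 0.701 in Col0 stroma and 0.182, 0.196 and -0.0152 in Day stroma, without overlap. How many of all genes were apart in this ratio was not counted. All 1032 repeat bases of ycf1 lie on its 5′ side, so its ratio also compares repeat with single-copy bases. In the stroma the repeat portion had 1.12 in Col0 and 1.14 in Day, and the single-copy portion 0.7 and 0.935. The part of the repeat in the ratio was not tested. The Day difference was -0.54 in the stroma (adjusted p = 0.0038) and -0.29 in the membrane (adjusted p = 0.0912). The membrane value was called in a fit of those groups alone (adjusted p = 0.00257). In Night stroma the ycf1 ratio was higher than in Day by 0.45 (adjusted p = 0.0157), a call lost without Day stroma replicate 3 or Night stroma replicate 1, at 0.379 and 0.356. The clpP ratio was lower in Day than in Col0 membrane, at -0.23 (adjusted p = 0.00156), and was not called when the middle of the gene was left out or the median depth of each portion was used. The ycf2 ratio stayed within 0.151 of 0 in every library of the first table. It was higher in Night than in Day stroma by 0.17 (adjusted p = 0.000371), and lower in sig2-2 than in Col0 membrane, at -0.15 (adjusted p = 0.0123, 18% of genes called), a call lost without sig2-2 membrane replicate 3, at -0.136, and in a fit of those groups alone (adjusted p = 0.0998). Without sig2-2 membrane replicate 2, clpP and ycf1 were also called there, at -0.175 and 0.452. In sig2-2 against Col0 stroma 2.0% of genes were called, and in sig6-1 against Col0 0.0% in both fractions. In the second table no gene of the 50 was called by limma in any comparison of conditions, a share of 0.0% each. With the replicate number as a block, accD was called in sig2-2 against Col0 stroma at -0.462 (adjusted p = 0.0101, against 0.305 without the block).

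**Figure D5:**
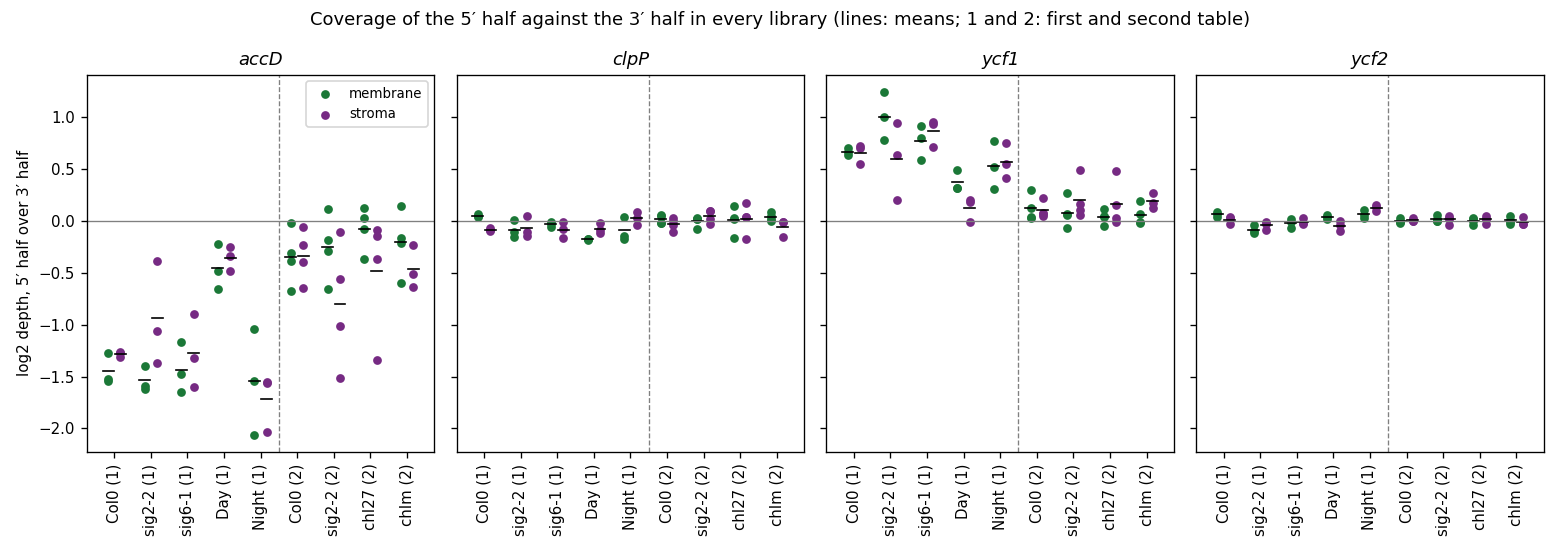
Log2 ratio of mean depth on the 5′ side of the gene's midpoint to that on the 3′ side for the 4 genes, one point per library, by condition and fraction in both tables; 0 is an even profile. The accD points of Day lie between -0.654 and -0.225 and those of Night between -2.06 and -1.04.

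Between membrane and stroma the same ratio was called for 2 of the 4 genes in sig2-2 of the first table and for none in the other 8 conditions, and conditions were not tested against each other in this. In sig2-2 it was lower in the membrane for accD, at -0.60 (adjusted p = 0.0489), and higher for ycf1, at 0.41 (adjusted p = 0.0407), beside 30.0% of genes called in either direction. The accD stroma values were -0.388, -1.06 and -1.37, of which replicate 1 stood apart from the membrane values of -1.59, -1.40 and -1.62. Both calls were lost without stroma replicate 1, at -0.320 and 0.215, without membrane replicate 1, at -0.568 and 0.412, without stroma replicate 2, at -0.655 and 0.427, and without membrane replicate 3, at -0.555 and 0.292. Neither was called in the sig2-2 libraries alone. Fits on a condition's own libraries called clpP in Col0 at 0.133 (adjusted p = 0.00541) and ycf1 in Day at 0.254 (adjusted p = 0.00186). In chlm of the second table ycf1 was called at -0.185 (adjusted p = 0.0366) without the libraries numbered 2. In Col0, sig6-1, Day and Night the ratio was called for 8.0%, 10%, 0.0% and 2.0% of genes, and in the second table for none.

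The repeat and single-copy portions of ycf1 are described without a test. In Col0 of the first table the repeat portion had 0.894 ± 0.0170 in the membrane and 1.12 ± 0.0168 in the stroma (SD, n = 3), a log2 difference of -0.322. Its single-copy portion had 0.531 and 0.700, a difference of -0.397. In Day the repeat portion differed by -0.0152 and the single-copy portion by -0.369. In sig2-2 the differences were -0.202 and -0.635. In Col0 of the second table both portions lay near the library average, with 1.05 and 1.14 in the repeat portion and 0.971 and 1.11 in the single-copy portion.

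Start regions were taken from 250 bases before to 50 bases inside the annotated gene start, and tested among 224 regions at both ends of all genes. With the library mean only clpP had a call there, lower in the membrane in sig2-2 of the first table, at -0.245 (adjusted p = 0.0366, 58.0% of regions called lower), and in Day, at -0.401 (adjusted p = 0.00547, 13.4% called lower). The sig2-2 value turned to 0.085 with the median window and 0.0657 with the single-copy mean, and its call was lost without stroma replicate 1 or 2, at -0.169 and -0.225, or membrane replicate 1 or 3, at -0.259 and -0.132. The Day call was lost without stroma replicate 3, at -0.322, and under both other scalings, at -0.193 with the median window (adjusted p = 0.109) and -0.209 with the single-copy mean (adjusted p = 0.0553). The ycf1 start region in Day was not called at 0.307 (adjusted p = 0.106), but was called higher in the membrane at 0.515 with the median window (adjusted p = 0.0121) and 0.498 with the single-copy mean (adjusted p = 0.0174). In sig2-2 the accD start region was called at -0.715 without membrane replicate 2 and at -0.811 without stroma replicate 3, and that of ycf1 at -0.433 and -0.387 without stroma or membrane replicate 3. At the other end of the gene, the region of ycf2 was lower in Col0 membrane, at -0.668 (adjusted p = 4.72e-05, 31.2% of regions called lower), and in sig2-2, at -0.327 (adjusted p = 0.0153). That of clpP was lower in Col0 at -0.379, in sig2-2 at -0.367 and in Day at -0.344 (limma adjusted p = 0.00814, 0.00827 and 0.0296).

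The genes accD, clpP and ycf1 varied together over the libraries and ycf2 did not follow them. Over the 30 libraries of the first table, which share the scaling to their own mean and fall into 10 groups, Pearson's r of log2 scaled depth was 0.927 to 0.955 between pairs of accD, clpP and ycf1, and 0.166 to 0.312 between each of them and ycf2. With rrn23S it was -0.943 to -0.914 for the 3 genes. In the 31 libraries of the second table r was 0.805 to 0.898 among the 3 genes and -0.624 to -0.531 with ycf2. The 3 genes varied at least as closely with some genes outside the set, which are given next. These values describe the libraries and were not tested.

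Genes whose levels over the libraries were most like each member were sought among 66 other genes of at least 200 bases, by Pearson's r of log2 scaled depth. In the first table they were petB, rpl16 and ycf3 for accD (r = 0.975, 0.974 and 0.961) and atpF, petB and atpI for clpP (r = 0.970, 0.966 and 0.965). For ycf1 they were ndhA, ndhG and ndhD (r = 0.973, 0.973 and 0.971), and for ycf2 ndhB, rps7 and rpl2 (r = 0.925, 0.917 and 0.876). The median gene compared had r = 0.832, 0.817, 0.764 and 0.160 with accD, clpP, ycf1 and ycf2. In the second table the most alike were atpF, rpl16 and rpoA for accD (r = 0.950, 0.948 and 0.921) and atpF, ycf3 and rps18 for clpP (r = 0.945, 0.929 and 0.898). For ycf1 they were rps15, rps18 and atpF (r = 0.907, 0.907 and 0.884), and for ycf2 atpB, rps7 and psbB (r = 0.882, 0.854 and 0.822). The genes petB, atpF, ycf3 and rpl16 encode a cytochrome b6f subunit, an ATP synthase subunit, a photosystem I assembly factor and a ribosomal protein.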

How the data were processed

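The authors deposited 2 tables of coverage signal, whole numbers of reads over each position of the plastid genome for each library, not scaled for depth. Per the submitters' processing notes, Trim Galore 0.4.1, Bowtie2 2.2.8.9, bedtools 2.25.0 and the TAIR10 genome were used; how repeat reads were placed and whether duplicates were removed is not given in the sources used here. Positions were taken as row numbers, since position labels in the second table run 1 lower. Files were read with Python 3.11.15, numpy 2.4.6 and pandas 2.3.3. Mean depth per gene body over the library mean was tested on log2 values with limma 3.58.1 in R 4.3.3, over 113 genes and all libraries of a table, two-sided, with Benjamini-Hochberg adjustment within each contrast, in 9 contrasts of fraction, 7 of differences and 14 within a fraction. In simulated tables with independent noise for each gene and 20 of 113 genes changed by 1 on the log2 scale, the membrane to stroma test recovered 97.5% in each table. Of its calls, 4.88% were false in the first table and 5.8% in the second. Measured genes share the scaling of their library, which the simulation left out, so its share of false calls need not hold for these data. The change of 1 is larger than any fraction difference of the 4 gene bodies. The simulation therefore cannot show how often differences of their size would be called. The precision is set by the number of libraries; no interval from read counts was given, since overlapping reads make positions dependent.

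The labels do not say that replicate numbers pair libraries. The main tests used no replicate block in any comparison, and the block was run as an alternative. Same-numbered libraries were regarded as paired where every correlation of their deviations from the group means exceeded 0.1. This held between membrane and stroma in sig6-1 (0.318 to 0.857) and Day (0.513 to 0.544) of the first table and in Col0 (0.332 to 0.844), chl27 (0.287 to 0.928) and chlm (0.511 to 0.742) of the second. It also held between sig6-1 and Col0 membrane, between Night and Day in both fractions, and in the second table between sig2-2 or chlm and Col0 in both fractions.

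The 4 genes, the lists and the tests were chosen with earlier results of these data known. Named genes are the 4 members, rpoB, rpoC1 and rpoC2, the nearest gene on each side, rrn23S, psbA, rbcL and psaA, and the 3 genes most like each member. Alternatives were another scaling (median window, single-copy mean), the own groups alone, median depth per gene, array weights, a replicate block, a length filter, a pseudocount, shifted start regions and each library left out. The 5′ to 3′ ratio was fitted in coordinate order and turned by each gene's known strand, and start regions were tested together with the regions at gene ends, because the gene table used carries no strand. Exons of clpP, motifs and sequences were not analysed here. The 1 column that holds no coverage, chlm stroma replicate 1, was left out.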

Additional observations from a re-analysis of the deposited data

Results flagged for a closer look

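In the second table, clpP in chl27 membrane replicate 2 had a scaled depth of 0.9062, where the other 3 libraries of the group had 0.988, 0.997 and 0.990. Its gap to the nearest of the others took up more of the group's range than expected for a group of 4, in 1 of the 28 groups of 4 examined. Chance alone gives about 1 such value in 20 groups. Replicate 2 was the lowest library for clpP in 8 of 8 groups of that table.

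The difference of the membrane to stroma ratio of ycf2 between Day and Col0 of the first table was 0.4103 on the log2 scale (limma adjusted p = 0.0319), the only one past the threshold among 28 such differences of the 4 genes. Every Col0 membrane library lay below every Col0 stroma library, where the fractions were apart for 86.7% of all genes, while the Day fractions overlapped. A higher ratio was called for 5.31% of all genes. The ycf2 call was lost with the median window (limma adjusted p = 0.297) and the single-copy mean (limma adjusted p = 0.216). It was also lost in most fits that left out a Col0 or Day library.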

How the results depend on the processing

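Of 922 counts of the 4 genes called under an alternative, 804 stayed within 1.5 times the main count and 118 moved. Of 3718 single values 266 changed sign, 260 of which never passed the threshold. The cause of a change was not tested, apart from the fewer libraries in fits that leave some out. Below, counts are main to alternative, and membrane against stroma is meant where no other comparison is named. They count the 4 genes only, and the share of all genes called in the same fit is not given beside them. That share can rise too. With the replicate block, calls over all genes in Col0 of the second table went from 12 higher and 6 lower to 26 higher and 33 lower. A count that rises is therefore not by itself a result about these genes.

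In the first table, the median window gave Col0 4 to 1, sig2-2 4 to 0, sig6-1 1 to 0 and Day 2 to 1, with ycf2 in sig2-2 at 0.135. It gave 1 to 0 for the Day against Col0 difference, 3 to 0 and 3 to 1 for Day against Col0 membrane and stroma, and 1 to 0 for sig6-1 against Col0 membrane, Night against Day stroma and the sig2-2 start region. Values that turned were clpP in Day against Col0 membrane, at -0.00326, and the clpP start region in sig2-2, at 0.085. The single-copy mean gave sig2-2 4 to 2, with ycf2 at 0.116, sig6-1 1 to 0, Day 2 to 1 and, in the comparisons between conditions named for the median window, the same counts. It also gave 0 to 1 for sig2-2 against Col0 and Night against Day membrane, with accD in Day against Col0 stroma at -0.0205 and the clpP start region in sig2-2 at 0.0657. Median depth per gene gave sig6-1 1 to 0, Day 2 to 0 and sig6-1 against Col0 membrane 1 to 0.

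Fits on the groups compared alone gave sig2-2 4 to 0, sig6-1 1 to 0, Night against Day stroma 1 to 2, start regions in sig2-2 1 to 0 and in Day 1 to 2, and, in the second table, sig2-2 against Col0 stroma 1 to 0. For the 5′ to 3′ ratio they gave Col0 0 to 1, sig2-2 2 to 0, Day 0 to 1 and sig2-2 against Col0 membrane 1 to 0. Without the middle of the gene, and with the median depth of each portion, that ratio gave 2 to 1 in sig2-2 and 2 to 1 in Day against Col0 membrane.

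Array weights, in which 5 fits stopped before converging, gave Day 2 to 4, sig2-2 against Col0 membrane 0 to 2, the sig6-1 against Col0 difference 0 to 4, its stroma 0 to 3 and Night against Day stroma 1 to 3. They gave start regions in Col0 0 to 2, sig2-2 1 to 0, sig6-1 0 to 3 and Day 1 to 3, and the 5′ to 3′ ratio in Col0 0 to 1 and sig2-2 2 to 0. In the second table they gave Col0 0 to 4, sig2-2 0 to 1, chlm 0 to 1, the sig2-2 against Col0 difference 0 to 2, chl27 against Col0 membrane 0 to 1 and start regions in Col0 and sig2-2 0 to 1 each. The share of all genes called with array weights was not set beside these counts. The rises therefore cannot be read as particular to the set.

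The replicate block, which pairs same-numbered libraries, gave sig6-1 against Col0 membrane 1 to 0 and the sig2-2 start region 1 to 2. In the second table it gave Col0 0 to 2, sig2-2 against Col0 stroma 1 to 3, the sig2-2 difference from Col0 0 to 2, the 5′ to 3′ ratio in sig2-2 0 to 1 and in sig2-2 against Col0 stroma 0 to 1, and the sig2-2 start region 0 to 1. The pairing moved no other count by over 1.5 times. Without the libraries numbered 2, chosen after seeing the data, the second table gave Col0 0 to 1, the sig2-2 difference from Col0 0 to 1, chlm against Col0 stroma 0 to 1 and the 5′ to 3′ ratio in chlm 0 to 1.

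With each library left out in turn, counts ranged from 0 to 1 in sig6-1, sig2-2 and sig6-1 against Col0 membrane, the Day against Col0 difference, Day against Col0 and Night against Day stroma, the Day start region and, in the second table, sig2-2 against Col0 stroma and the sig2-2 start region. They ranged from 1 to 2 in Day, from 0 to 2 for the 5′ to 3′ ratio in sig2-2, and from 0 to 3 for it in sig2-2 against Col0 membrane and for the sig2-2 start region. Exons of clpP, and the median depth of start regions, were not run. The lowest mean depth in a library was 43.2 for the 4 genes and 10.6 for any gene tested, and no test asked whether depth limits a call.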
